A study of Homo sapiens with 48 samples.

Results

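The data concern SK-MEL-103, a human melanoma cell line, made senescent with doxorubicin while both mitofusins were silenced, set against proliferating cells of the same line. The members are the 6 libraries whose labels name them so, 3 of doxorubicin-treated cells with siMFN1+2 (a pair of small interfering RNAs, against MFN1 and MFN2) and 3 of proliferating cells, out of 18 libraries of the line and 48 in the series. The siMFN1+2 cells were transfected, received 200 nM doxorubicin for 48 h starting a day later, and then stayed in medium without the drug until day 7. A group treated in the same way with the negative control siRNA (cNEG), also 3 libraries, serves to test the mitofusin siRNAs directly. The proliferating cells carried cNEG and no doxorubicin, so they differ from the siMFN1+2 cells in both the drug and the siRNA, and that comparison alone cannot tell these apart. The same 2 groups exist for IMR-90, a line of fetal lung fibroblasts, and are used for a comparison between the lines. The labels do not say whether the libraries of a group came from separate cultures, so the p-values measure the spread between these libraries only.

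Senescence is a lasting arrest of the cell cycle, held in place by p53 and by inhibitors of cyclin-dependent kinases, with a larger lysosomal compartment, loss of nuclear lamin B1 and, in many cells, the senescence-associated secretory phenotype (SASP) of cytokines and proteases. Mitofusins are GTPases that join the outer membranes of neighbouring mitochondria, and without them the network fragments. Mitochondria carry their own genome, which encodes subunits of the respiratory chain, and nucleic acids that leak from them can engage cytosolic sensors that switch on interferon-stimulated genes.

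Depth was 18434699 to 71016644 counts in the siMFN1+2 libraries, 31127306 to 69723645 in the cNEG doxorubicin libraries and 19134968 to 59218977 in the proliferating libraries, always deepest in library 1 and shallowest in library 3. Values below are CPM, counts scaled to the effective size of each library. A gene is called when its edgeR p, adjusted over the 17945 genes tested, is below 0.05, and fold changes are on the log2 scale with a standard error (SE). A principal component analysis of all libraries of the line used only the genes that varied most among them. The first component held 84.8% of the variance of those genes. On it the siMFN1+2 libraries lay between -20.4 and -7.38 and the cNEG doxorubicin libraries between -21.7 and -14.7. The proliferating libraries lay between 72.3 and 79.1. The largest difference within a group was between proliferating libraries 1 and 2, with a chi-square per degree of freedom of 117. It was 46.2 between proliferating libraries 1 and 3, 28.8 between 2 and 3 and at most 31.4 within either doxorubicin group. The line's identity was checked on its markers. SOX10, the neural crest transcription factor, lay at 594 to 662 CPM of the unscaled library in siMFN1+2 cells and 450 to 612 in proliferating cells, while the pigment genes MLANA and TYR held at most 5 counts in any of these 6 libraries. The lineage markers therefore show a SOX10-positive line with the pigment programme near 0.

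The silenced genes were read first. MFN1 (ENSG00000171109, GRCh38 chromosome 3, 179347692 to 179394931) had 21.9, 27.3 and 19.2 CPM in siMFN1+2 cells, 52.6, 52.2 and 58.7 CPM in cNEG doxorubicin cells and 80.6, 62.7 and 53.3 CPM in proliferating cells. MFN2 (ENSG00000116688, chromosome 1, 11980181 to 12013514) had 23.3, 27.4 and 20.7 CPM in siMFN1+2 cells, 98.8, 93.4 and 108 CPM in cNEG doxorubicin cells and 153, 139 and 136 CPM in proliferating cells. Every siMFN1+2 library lay below every other library in both genes, so the labels hold, though neither transcript was lost. Against proliferating cells MFN1 fell by 1.52 (SE 0.16, adjusted p = 4.3e-07) and MFN2 fell by 2.58 (SE 0.11, adjusted p = 3.2e-11) on the log2 scale. Against cNEG doxorubicin cells the log2 changes were -1.25 for MFN1 (adjusted p = 8.0e-04) and -2.07 for MFN2 (adjusted p = 1.3e-08).

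The transcriptome of the siMFN1+2 senescent cells differed widely from that of proliferating cells, and the arrest was its deepest feature. CDKN1A (ENSG00000124762, chromosome 6, 36676460 to 36687339), the kinase inhibitor p21 through which p53 halts the cycle, had 2076, 2041 and 2021 CPM in siMFN1+2 cells and 570, 518 and 598 CPM in proliferating cells (log2 fold change 1.86, SE 0.11, adjusted p = 8.2e-10). MKI67 (ENSG00000148773, chromosome 10, 128096659 to 128126385), whose protein marks cycling cells, had 0.884, 0.572 and 4.05 CPM in siMFN1+2 cells and 372, 244 and 222 CPM in proliferating cells (-7.61, SE 1.09, adjusted p = 1.4e-05). The groups did not overlap in either gene, and siMFN1+2 library 3 stood above its replicates in MKI67. In bulk RNA, fewer cycling cells and less of the transcript per cell cannot be told apart. The cNEG doxorubicin cells had 2136, 2316 and 2054 CPM of CDKN1A and 0.171, 0.209 and 1.05 CPM of MKI67.

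**Figure D1:**
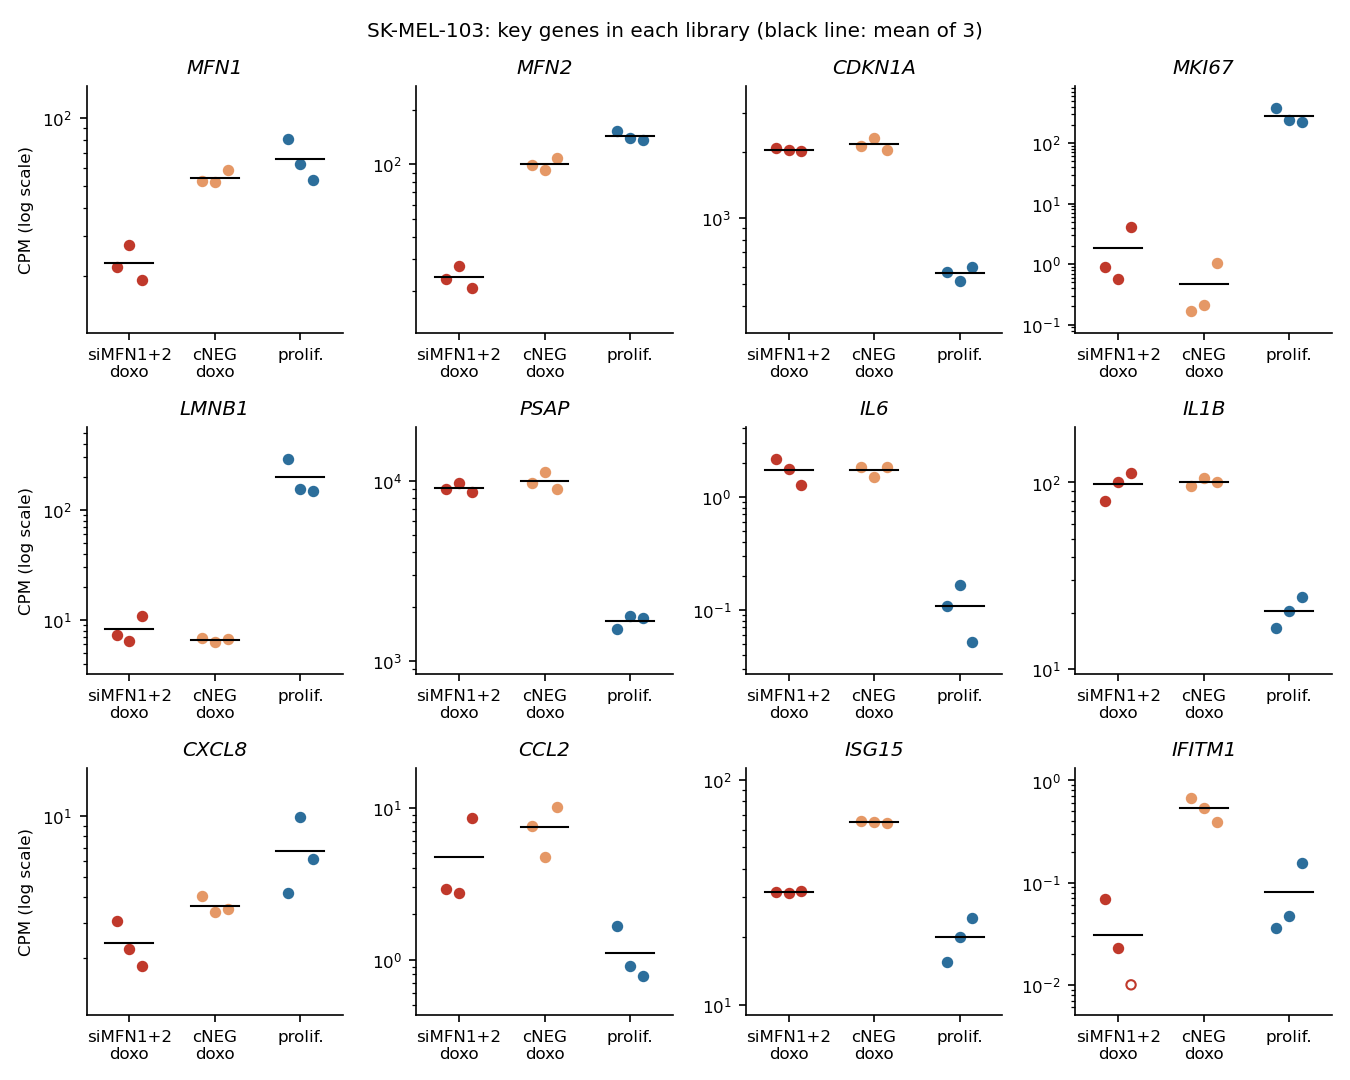
CPM on a log scale for 12 genes in each SK-MEL-103 library of siMFN1+2 doxorubicin, cNEG doxorubicin and proliferating cells, with a black line at the mean of 3 libraries and an open point drawn at 0.01 where a library had 0. CDKN1A, LMNB1, PSAP, IL6 and IL1B lie at like levels in both doxorubicin groups and apart from proliferating cells, whereas MFN1, MFN2, ISG15 and IFITM1 separate the doxorubicin groups.

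Over all genes tested, 5414 were higher in siMFN1+2 cells than in proliferating cells (30.2%) and 5404 were lower (30.1%), together 10818 (60.3%), with 2962 and 2160 of them at least 2-fold higher or lower (16.5% and 12%). With so many genes called, a share near 30% of a list in 1 direction is what any genes show here, and the lists below are read against it. The median log2 fold change over all genes was 0.04. The groups of 3 did not overlap for 10843 genes (60.4%). In the cNEG doxorubicin cells, compared with the same 3 proliferating libraries, 5268 genes were higher (29.4%) and 5366 were lower (29.9%), together 10634 (59.3%). Since both comparisons use the same proliferating libraries, their values are given side by side and no agreement between them is computed.

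Cell division genes fell without exception. All 25 members of the mitosis and G2/M list were lower in siMFN1+2 cells, with a median of -5.58, as were all 25 of the DNA replication and S phase list, with a median of -3.16. In cNEG doxorubicin cells the medians were -5.90 and -3.28, with all 25 lower in each list. Among the 8 named genes with the lowest fold changes of all, HMMR, which binds hyaluronan and spindle microtubules, had 0.193, 0.160 and 0.499 CPM in siMFN1+2 cells and 66.4, 52.3 and 52.5 CPM in proliferating cells (-7.92, SE 0.54, adjusted p = 2.8e-09). The others were MKI67, DEPDC1 (-7.60), the spindle pole gene ASPM (-7.51), the kinetochore gene SKA3 (-7.29), the spindle gene DLGAP5 (-7.17), the mitotic kinase AURKB (-7.16) and BIRC5, which encodes survivin (-7.16). RRM2, the ribonucleotide reductase subunit made in S phase, had 1.89, 1.46 and 6.66 CPM in siMFN1+2 cells and 539, 319 and 302 CPM in proliferating cells (-7.07, SE 0.75, adjusted p = 5.0e-07). Library 3 was again the highest siMFN1+2 library for AURKB, BIRC5, RRM2 and TK1, at 1.44, 3.66, 6.66 and 3.88 CPM. Summed over the mitosis list, the siMFN1+2 libraries held 79.6, 76.8 and 139 CPM and the proliferating libraries 4854, 3352 and 3106 CPM.

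Promoters of the mitosis list are shown because their CHR (cell cycle genes homology region) element, TTTGAA, is the site through which the DREAM complex is known to repress these genes under p53 and p21. The sequences are from RefSeq on GRCh38.p14, on the strand of the gene, with the element in capitals, and the genes were picked for carrying it.
MKI67, minus strand, chr10:128126424-128126513: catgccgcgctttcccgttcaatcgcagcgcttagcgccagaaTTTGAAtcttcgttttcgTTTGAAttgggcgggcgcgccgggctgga
CDC20, plus strand, chr1:43358874-43358963: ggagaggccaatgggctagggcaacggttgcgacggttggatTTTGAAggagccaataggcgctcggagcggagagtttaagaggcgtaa
CDC25C, minus strand, chr5:138331805-138331894: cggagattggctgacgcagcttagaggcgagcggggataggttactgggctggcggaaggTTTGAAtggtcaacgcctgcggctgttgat
Searched on both strands over the 250 bases before the start, TTTGAA stood in 11 of the 19 mitosis members with a promoter in the table (57.9%), in 13.3% of all 35116 promoters and in 9.64% of the 17061 promoters of genes tested here. A match is a description of these letters and not of binding.

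Other markers of arrest differed as well. Of 6 inhibitors of cyclin-dependent kinases tested out of 7, 3 were higher and 2 lower. Besides CDKN1A, CDKN1C (p57) was higher at 56.5, 61.2 and 52.1 CPM in siMFN1+2 cells, against 16.6, 2.96 and 7.22 CPM in proliferating cells (2.64, SE 0.48, adjusted p = 1.6e-04), and CDKN2C (p18) was lower at 3.98, 3.84 and 2.66 CPM against 60.9, 16 and 23 CPM (-3.23, SE 0.48, adjusted p = 2.3e-05). The call of CDKN1B (1.09) ended without proliferating library 2 or without library 3 (largest adjusted p = 0.0546). CDKN2B held at most 2 counts in a library and was not tested. In the list of nuclear lamina and HMG (high mobility group) chromatin proteins, 10 of 12 were lower and 1 higher, with a median of -2.00. LMNB1, which encodes lamin B1, had 7.32, 6.47 and 11 CPM in siMFN1+2 cells, 6.82, 6.27 and 6.74 CPM in cNEG doxorubicin cells and 292, 154 and 149 CPM in proliferating cells (-4.62 against proliferating, SE 0.30, adjusted p = 1.4e-09). HMGB2 (-4.56) and the lamina-associated TMPO (-4.36) fell with it.

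Most p53 targets were higher, 21 of the 29 tested out of 30, with 3 lower and a median of 0.70, against 22 higher, 3 lower and a median of 0.94 in cNEG doxorubicin cells. SPATA18, a p53 target in mitochondrial quality control, had 5.30, 5.12 and 4.05 CPM in siMFN1+2 cells and 0.0908, 0.284 and 0.209 CPM in proliferating cells (4.70, SE 0.29, adjusted p = 8.6e-10). BBC3, which encodes the death-promoting PUMA, had 205, 246 and 185 CPM against 53.0, 51.5 and 57.9 CPM (1.97, SE 0.22, adjusted p = 7.5e-07). The 3 that fell were GDF15, a secreted stress cytokine (-1.66), AEN (-0.43) and CCNG1 (-0.35), and GDF15 held only 28 counts over the siMFN1+2 libraries and 79 over the proliferating ones and lost its call without siMFN1+2 library 1 or 2 or proliferating library 3. Of 13 BCL2 family genes tested out of 15, 6 were higher and 4 lower. The pro-death BMF rose (3.70, SE 0.57, adjusted p = 3.0e-05) and the survival gene BCL2 itself fell, with 8.84, 7.94 and 7.04 CPM in siMFN1+2 cells and 41.7, 34.0 and 34.6 CPM in proliferating cells (-2.20, SE 0.15, adjusted p = 2.2e-09).

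The lysosome was the most one-sided of the rising lists of over 20 genes, with 25 of 32 higher and 3 lower and a median of 0.91, against 27 higher, 3 lower and the same median of 0.91 in cNEG doxorubicin cells. GAA, which breaks down glycogen in lysosomes, had 129, 131 and 143 CPM in siMFN1+2 cells and 15.8, 7.25 and 9.31 CPM in proliferating cells (3.62, SE 0.23, adjusted p = 1.0e-09). PSAP, the precursor of the saposins, had 9021, 9671 and 8671 CPM in siMFN1+2 cells and 1496, 1773 and 1725 CPM in proliferating cells (2.45, SE 0.18, adjusted p = 7.9e-09). CTSF, a cysteine protease, rose by 2.19 on the log2 scale, while GUSB (-1.01) and NPC1 (-0.51) were among those that fell.

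**Figure D2:**
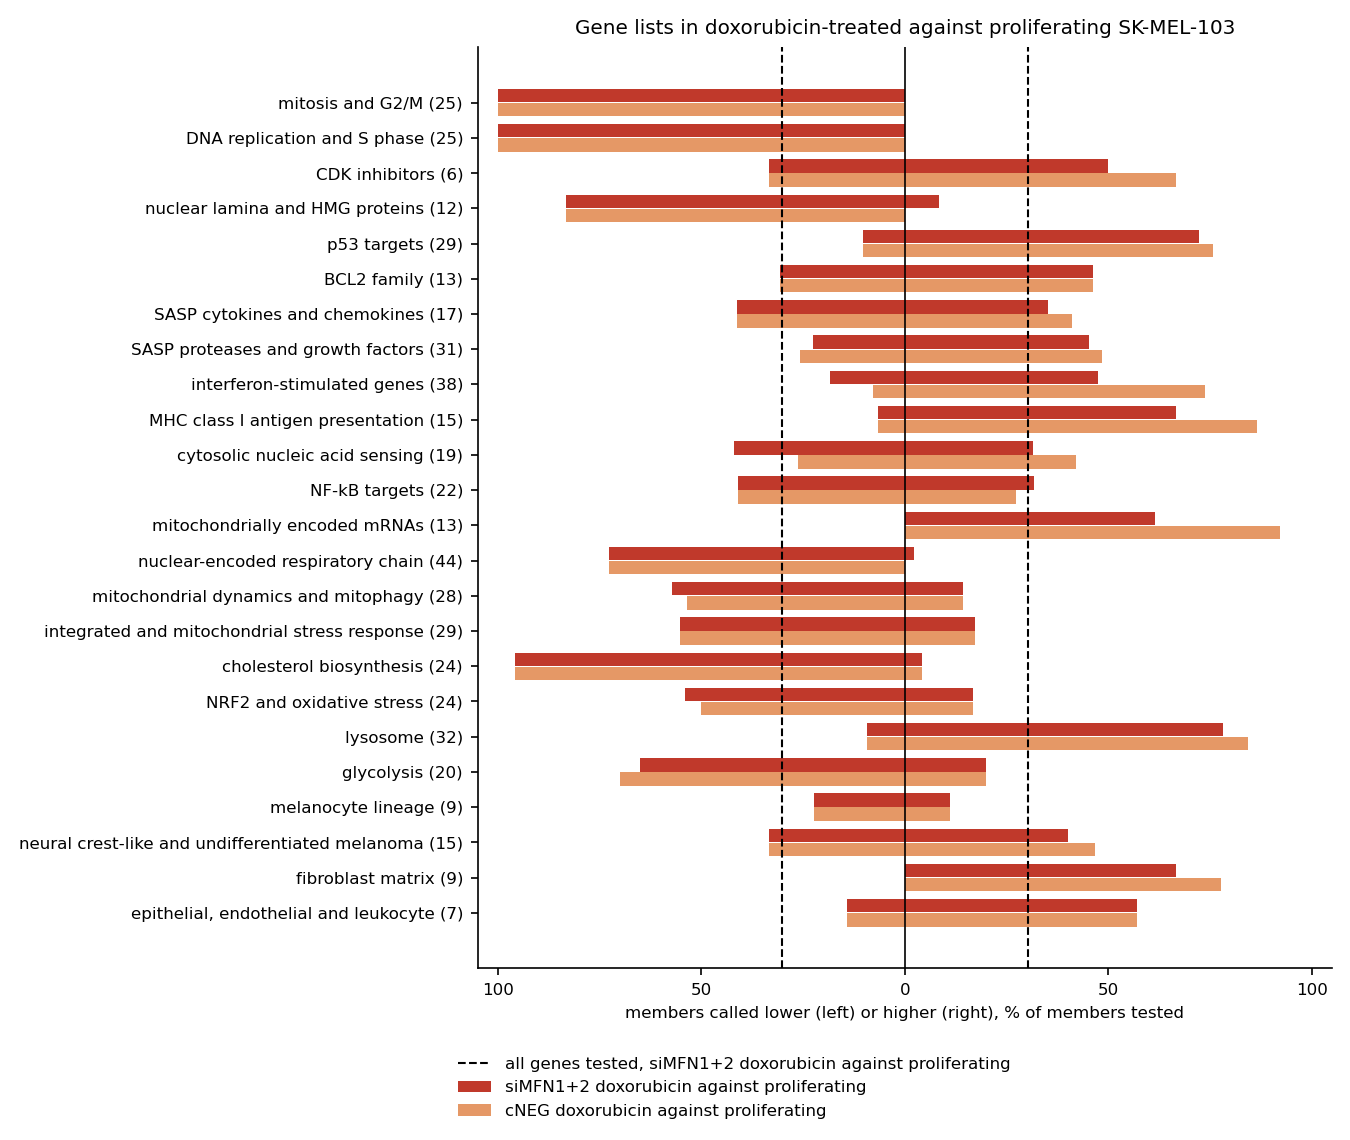
Share of the tested members of 24 gene lists called lower (left) or higher (right) than in proliferating SK-MEL-103, for siMFN1+2 doxorubicin (upper bar) and cNEG doxorubicin (lower bar), with the number tested in siMFN1+2 against proliferating in brackets and dashed lines at the share of all genes tested in that comparison, 30.1% lower and 30.2% higher. Both groups are set against the same 3 proliferating libraries. The bars differ most between the groups in interferon-stimulated genes and mitochondrially encoded mRNAs.

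Biosynthetic programmes were lower. Of 24 cholesterol biosynthesis genes tested out of 25, 23 were lower and 1 higher, with a median of -1.45, and the same counts with a median of -1.41 were found in cNEG doxorubicin cells. ACAT2, which makes the acetoacetyl-CoA that feeds the pathway, had 12.2, 10.9 and 11.4 CPM in siMFN1+2 cells, 14.1, 12.9 and 14.2 CPM in cNEG doxorubicin cells and 134, 59.2 and 65 CPM in proliferating cells (-2.90 against proliferating, SE 0.23, adjusted p = 1.5e-08). Every siMFN1+2 library lay far below every proliferating one, and proliferating library 1 stood above its replicates. TM7SF2, a sterol reductase, was the member that rose (1.06). Glycolysis fell in 13 of 20 and rose in 4, with LDHA, which makes lactate, at 216, 186 and 269 CPM in siMFN1+2 cells and 1147, 948 and 870 CPM in proliferating cells (-2.14, SE 0.15, adjusted p = 5.3e-09), while the glucose transporter SLC2A1 rose (1.12). In the integrated and mitochondrial stress response list, 16 of the 29 tested out of 30 fell and 5 rose. The serine synthesis genes PHGDH (-3.62) and PSAT1 (-3.08) and the one-carbon enzyme MTHFD2 (-2.34) were the lowest, and the transcription factor ATF3 had 84.0, 99.1 and 69.1 CPM in siMFN1+2 cells and 17.2, 12.6 and 12 CPM in proliferating cells (2.59, SE 0.26, adjusted p = 3.2e-07). In the NRF2 and oxidative stress list 13 of 24 were lower and 4 higher, with GCLM, a subunit of the enzyme that starts glutathione synthesis, at -1.47 and AKR1C3 at 2.22.

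The secretory programme was mixed. Of 29 SASP cytokines and chemokines only 17 reached the filter on low counts, and of these 6 were higher and 7 lower with a median of -0.26. Since 30.2% of all genes tested were higher and 30.1% lower, calls in both directions are not particular to this list. IL1B, an inflammatory cytokine, had 79.6, 101 and 113 CPM in siMFN1+2 cells, 95.9, 106 and 101 CPM in cNEG doxorubicin cells and 16.6, 20.6 and 24.4 CPM in proliferating cells (2.26 against proliferating, SE 0.16, adjusted p = 3.0e-09). IL6 was low, with 2.14, 1.74 and 1.28 CPM in siMFN1+2 cells, 1.84, 1.5 and 1.84 CPM in cNEG doxorubicin cells and 0.109, 0.166 and 0.0523 CPM in proliferating cells (3.85, SE 0.40, adjusted p = 3.3e-07). Both cytokines thus stood above proliferating cells in every siMFN1+2 library. The chemokine CXCL8 went the other way, at 3.07, 2.22 and 1.83 CPM in siMFN1+2 cells and 4.18, 9.93 and 6.17 CPM in proliferating cells (-1.48, SE 0.30, adjusted p = 4.3e-04). CCL2, which attracts monocytes, had 2.91, 2.72 and 8.49 CPM against 1.65, 0.901 and 0.785 CPM (1.94, SE 0.52, adjusted p = 0.0041), and its siMFN1+2 values were led by library 3. CXCL10 was not tested, with 0 counts in each siMFN1+2 library and 0, 2 and 0 in the proliferating ones, so a difference was not detectable at this depth.

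Among SASP proteases and growth factors, 14 of the 31 tested out of 38 were higher and 7 lower. IGFBP7 (3.29), a secreted binder of insulin-like growth factors, and PLAT (2.34), the tissue plasminogen activator, rose, PLAT to 848, 923 and 1038 CPM in siMFN1+2 cells against 212, 148 and 194 CPM in proliferating cells. FGF2 fell, with 4, 3 and 1 counts in the siMFN1+2 libraries and 66, 66 and 28 in the proliferating ones (-4.49, SE 0.57, adjusted p = 3.9e-06). The fall of MMP3 (-6.67) rested on proliferating library 2, which held 748 of the 762 counts of its group, and without that library it was not called (adjusted p = 0.188). Of the 22 NF-kB targets tested out of 25, 7 rose and 9 fell, beside 30.2% higher and 30.1% lower over all genes tested. The heparan sulfate proteoglycan SDC4 (1.5) was among the highest and BIRC3 (-2.17), an inhibitor of cell death, among the lowest.

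The gene with the highest fold change under the naming rule was OLFML2A (ENSG00000185585, chromosome 9, 124777158 to 124814885), which encodes an extracellular olfactomedin-domain protein. It had 76.0, 82.9 and 60.2 CPM in siMFN1+2 cells, 59.7, 64.8 and 45.7 CPM in cNEG doxorubicin cells and 0.599, 0.261 and 0.314 CPM in proliferating cells (7.43, SE 0.51, adjusted p = 3.0e-09). The next were the mucin MUC19 (5.24), the receptor TNFRSF19 (4.92), GASK1B (4.46), the granule protein SCG2 (4.39), the class II antigen-presenting HLA-DQA1 (4.30) and the metalloproteases ADAM12 (4.30) and ADAMTS7 (4.25). HLA-DQA1 belongs to a family of near-identical genes between which reads can be split, so its level is uncertain. None of these 8 was called between siMFN1+2 and cNEG doxorubicin cells without a replicate block, where their fold changes ran between -0.17 and 0.52. OLFML2A, MUC19 and TNFRSF19 were each called under 1 alternative fit.

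Among lineage genes SOX10 did not pass the test (0.14, adjusted p = 0.37) while others changed strongly. Of 9 melanocyte lineage genes tested out of 15, 1 was higher and 2 lower. The pigment enzyme gene DCT fell, with 4, 3 and 1 counts in the siMFN1+2 libraries and 39, 127 and 33 in the proliferating ones (-4.85, SE 0.57, adjusted p = 1.7e-06). Its relative TYRP1 rose, with 13, 6 and 5 counts against 3, 0 and 0 (2.74, SE 0.79, adjusted p = 0.0064). In the neural crest-like and undifferentiated melanoma list 6 of 15 were higher and 5 lower. The highest was the adhesion gene L1CAM at 1372, 1464 and 1415 CPM in siMFN1+2 cells against 424, 124 and 313 CPM in proliferating cells (2.30, SE 0.29, adjusted p = 3.0e-06). The lowest called were EGFR (-1.12), FOSL1 (-0.93) and TNC (-0.72). Of the other markers of undifferentiated melanoma NGFR rose (1.75), AXL fell (-0.54) and SOX9 was not called (-0.84, adjusted p = 0.051). MITF, the melanocyte master regulator and the other melanocyte gene that fell, had 9.09, 7.46 and 7.82 CPM against 10.4, 13.8 and 10.8 CPM (-0.52, SE 0.14, adjusted p = 0.0046). In the fibroblast matrix list 6 of the 9 tested out of 15 rose and 0 fell, with a median of 1.6 and with COL5A1 (3.82) and COL1A1 (3.13) among them. The 7 fibroblast markers together held 92.0 to 97.4 CPM of the unscaled library in siMFN1+2 cells, 90.8 to 101 in cNEG doxorubicin cells and 16.4 to 35.1 in proliferating cells, nearly all of it from COL1A1 and LUM, while DCN held 2 to 5 counts in siMFN1+2 libraries and 0 in proliferating ones. The part of other cells in these matrix values was not tested. The 4 leukocyte markers summed to 0.434 to 0.898 CPM in siMFN1+2 cells and 0.160 to 0.261 in proliferating cells. CD3E was at 0 counts in every siMFN1+2 library, but PTPRC, the pan-leukocyte phosphatase CD45, held 56, 37 and 7 counts there, 66, 50 and 34 in the cNEG doxorubicin libraries and 0, 2 and 2 in the proliferating ones and rose (4.19, SE 0.59, adjusted p = 1.2e-05). The 3 epithelial markers summed to at most 0.380 CPM and the 3 endothelial markers to at most 1.65 CPM in siMFN1+2 cells. Within them CDH1, the epithelial cadherin, rose with 11, 6 and 4 counts in siMFN1+2 libraries and 1, 0 and 0 in proliferating ones (3.85, adjusted p = 0.0063), and VWF, the endothelial von Willebrand factor, rose with 81, 59 and 24 counts against 36, 4 and 3 (1.89, adjusted p = 0.0013). The part of such cells in the other results was not tested.

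How many genes separated the doxorubicin groups depended on the fit. They were few without a replicate block, but 1384 (8.2%) with the replicate number as a block in these 6 libraries alone, as described below. Without a block, 2 genes were higher in siMFN1+2 than in cNEG doxorubicin cells (0.0111%) and 29 lower (0.162%), together 31 (0.173%). Of the 29, 22 were at least 2-fold lower (0.123%), and no gene was at least 2-fold higher. An unadjusted p below 0.05 was found for 620 genes (3.46%), and without siMFN1+2 library 1 the count of 31 became 18. Besides MFN1 and MFN2, the lower genes were mainly 14 interferon-stimulated genes and 8 mitochondrially encoded mRNAs. The median log2 fold change over all genes was 0.01. Without the block no member of the mitosis, S phase, p53, lysosome, cholesterol, SASP or NF-kB lists was called. CDKN1A differed by -0.08, and MKI67 by 1.88 with 1 library, number 3, far above the others in both groups. The 2 genes higher in siMFN1+2 cells, named because they are all of that direction, were WBP1L (0.41) and the choline transporter SLC44A1 (0.60), and with a library left out in turn 0 or 1 gene was higher.

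The labels state no pairing, but the replicate numbers were taken as pairs between these groups. Deviations from the group means of same-numbered libraries correlated at 0.259, 0.436 and 0.371 across genes. Depth also fell from library 1 to library 3 in both groups, and its part in these correlations was not tested. With the number as a block the count became 54 (6 higher and 48 lower, 0.0334% and 0.267%, 0.301% in all) when all groups of the line were fitted and 1384 (656 higher and 728 lower, 3.89% and 4.31%, 8.2% in all) when only these 6 libraries were, and each fit called all of the 31 genes again. The blocked fit of 6 libraries tested 16884 genes. In it 3 mitosis genes were higher, MKI67 (1.96), BIRC5 (1.42) and CDK1 (1.22), and 1 lower, and 6 of 24 S phase genes were higher and 0 lower, whereas with the block over all groups none of either list was called (adjusted p = 0.94, 0.94 and 0.88 for the 3 genes). It also called 5 of 28 p53 targets, 7 of 21 NF-kB targets and 8 of 24 cholesterol genes lower, with median log2 fold changes of the whole lists of -0.04, -0.11 and -0.11. In the lysosome list it called 1 of 32 higher and 4 lower. None of these 4 lists held a call with the block over all groups. Among SASP genes the fit of 6 libraries called 1 of 16 cytokines and chemokines higher and 3 lower, and 8 of 25 proteases and growth factors higher and 8 lower. With the block over all groups 1 SASP gene was called, IGFBP3, a secreted binder of insulin-like growth factors. It had 35.9, 35.6 and 69.1 CPM in siMFN1+2 cells, 106, 90.8 and 167 CPM in cNEG doxorubicin cells and 56.6, 50.8 and 51.3 CPM in proliferating cells. Its fold change between the doxorubicin groups was -1.38 without the block (adjusted p = 0.12), -1.39 with the block over all groups (adjusted p = 0.0044) and -1.40 in the blocked fit of 6 libraries (adjusted p = 6.4e-11). Of the 24 lists, 22 held at least 1 call in the blocked fit of 6 libraries and 5 with the block over all groups. CDK1 and IGFBP3 were chosen after their values were seen.

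**Figure D3:**
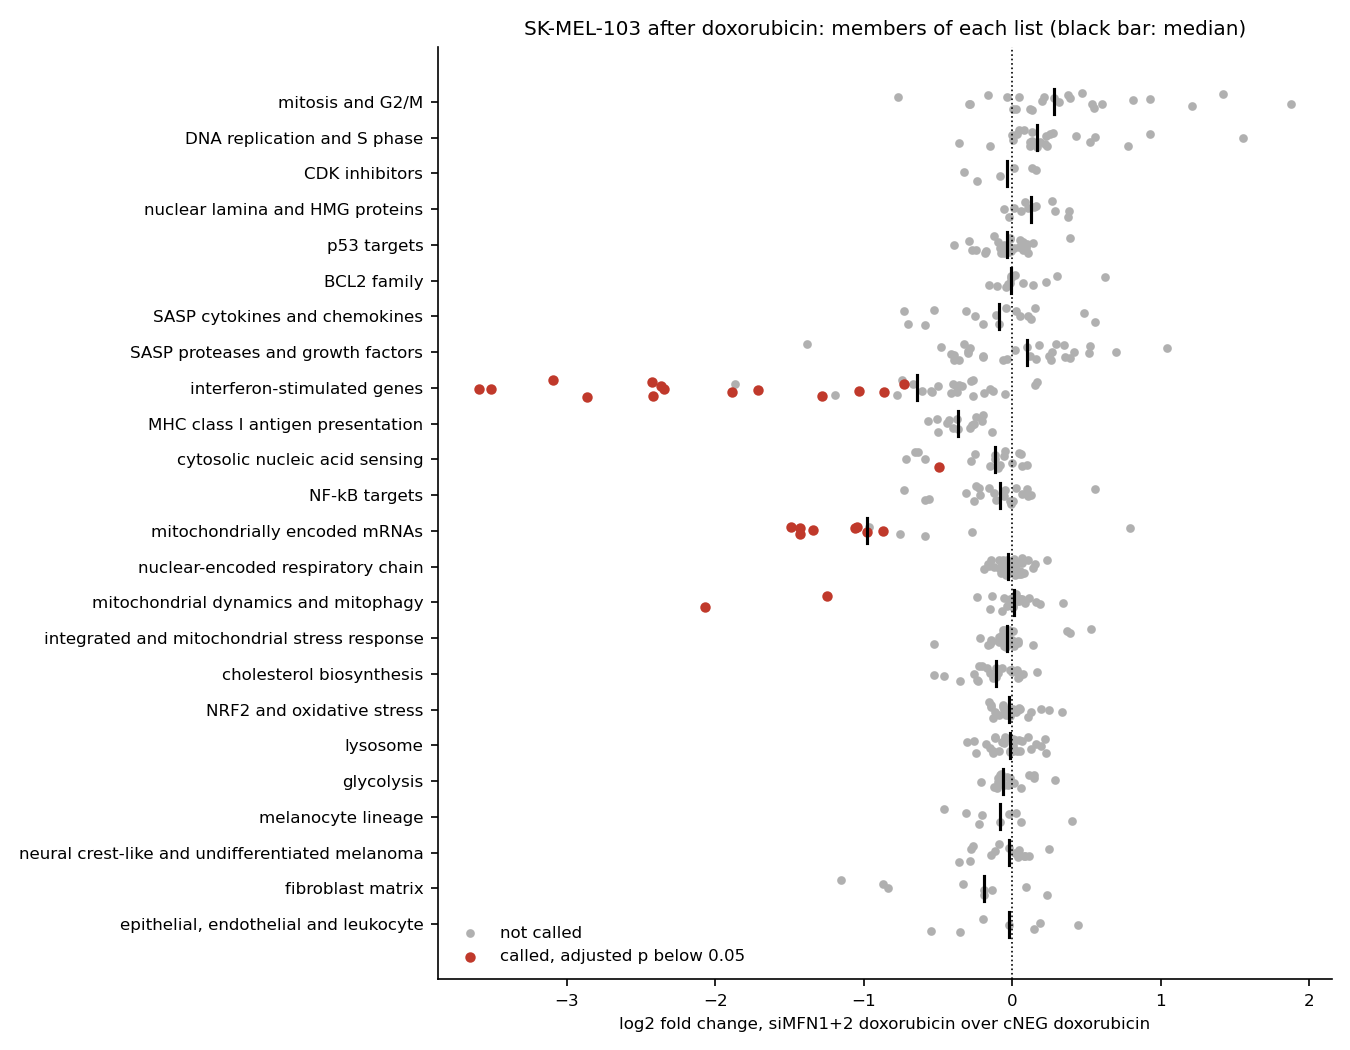
Log2 fold change of siMFN1+2 doxorubicin over cNEG doxorubicin SK-MEL-103 for each tested member of the 24 lists, in the fit without a block, with red points for called genes and a black bar at the median. Called members lie in the interferon-stimulated, mitochondrially encoded, mitochondrial dynamics (MFN1 and MFN2) and cytosolic sensing (SAMHD1) lists, and all of them are below 0.

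Interferon-stimulated genes were the largest group that fell with the mitofusins. Of 38 tested out of 45, 14 were lower and 0 higher than in cNEG doxorubicin cells, with a median of -0.64, and 16 were lower with the block over all groups and 32 in the blocked fit of 6 libraries. Leaving out each library in turn gave 11 to 13. IFIT1, IFI6 and IFI27, described here, were chosen after their values were seen. IFIT1, which binds foreign RNA ends, had 7.11, 6.89 and 5.10 CPM in siMFN1+2 cells, 37.3, 36.2 and 24.6 CPM in cNEG doxorubicin cells and 4.36, 2.89 and 2.98 CPM in proliferating cells (-2.35 against cNEG, SE 0.25, adjusted p = 1.3e-04). IFI6 had 11.6, 12.4 and 16 CPM in siMFN1+2 cells, 67.9, 66.7 and 77.9 CPM in cNEG doxorubicin cells and 5.36, 7.70 and 8.42 CPM in proliferating cells (-2.42, SE 0.17, adjusted p = 9.2e-07). In both genes the siMFN1+2 libraries lay far below cNEG doxorubicin and yet above every proliferating library. ISG15, the ubiquitin-like modifier, had 31.8, 31.3 and 32.0 CPM in siMFN1+2 cells, 65.5, 64.6 and 64.0 CPM in cNEG doxorubicin cells and 15.5, 20.0 and 24.3 CPM in proliferating cells (-1.03 against cNEG, adjusted p = 0.0013, and 0.68 against proliferating, adjusted p = 5.1e-04).

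In siMFN1+2 senescent cells the interferon-stimulated genes lay partly above and partly below the proliferating level. Against proliferating cells 18 of the 38 interferon-stimulated genes were higher in siMFN1+2 cells and 7 lower, with a median of 0.38, whereas 28 were higher and 3 lower in cNEG doxorubicin cells, with a median of 1.27. TRIM22, an antiviral ubiquitin ligase, had 164, 184 and 133 CPM in siMFN1+2 cells, 176, 193 and 158 CPM in cNEG doxorubicin cells and 47.5, 27.2 and 42.3 CPM in proliferating cells (2.04, SE 0.23, adjusted p = 8.2e-07), and IFIT2 rose by 1.71 on the log2 scale. GBP1 (-2.22), the RNA-sensing OAS3 (-2.17) and USP18 (-2.14), a brake on interferon signalling, were below proliferating cells. OAS3 had 3.67, 3.25 and 3.44 CPM in siMFN1+2 cells, 9.00, 8.29 and 7.93 CPM in cNEG doxorubicin cells and 14.5, 13.3 and 19.1 CPM in proliferating cells. The lowest fold changes against cNEG were those of IFITM1 (-3.59), RSAD2 (-3.51) and IFI27 (-3.09), genes of few counts. IFITM1 held 5, 1 and 0 counts in the siMFN1+2 libraries, 47, 26 and 12 in the cNEG doxorubicin libraries and 2, 2 and 3 in the proliferating ones, and it has close copies in IFITM2 and IFITM3. Its call ended without cNEG doxorubicin library 1 or siMFN1+2 library 2 (largest adjusted p = 0.0792). RSAD2 held 7, 7 and 2 counts in siMFN1+2 libraries, 104, 87 and 27 in cNEG doxorubicin libraries and 1, 3 and 0 in proliferating ones.

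The promoters of these 3 genes are shown for their ISRE-like element (interferon-stimulated response element, searched on both strands as GAAA, any 2 bases and GAAA), the kind of site that binds the interferon-activated factor ISGF3. The sequences are again from RefSeq on GRCh38.p14, with each match in capitals, which on the other strand reads as its reverse complement.
IFITM1, plus strand, chr11:313950-314039: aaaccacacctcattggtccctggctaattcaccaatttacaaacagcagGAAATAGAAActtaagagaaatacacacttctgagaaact
RSAD2, plus strand, chr2:6877592-6877681: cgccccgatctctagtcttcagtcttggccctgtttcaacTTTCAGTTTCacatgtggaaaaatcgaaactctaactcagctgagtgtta
IFI27, plus strand, chr14:94110601-94110690: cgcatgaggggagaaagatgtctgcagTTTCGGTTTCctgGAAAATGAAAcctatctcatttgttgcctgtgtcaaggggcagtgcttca
The element stood within 250 bases before the start in 23 of the 35 listed genes with a promoter in the table (65.7%), in 3.02% of all 35116 promoters and in 2.57% of those of the genes tested. Of the 14 genes lower than in cNEG doxorubicin cells 10 had a promoter in the table, and 9 of these held the element.

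Antigen presentation by MHC class I stayed above the proliferating level. In siMFN1+2 cells 10 of 15 genes were higher and 1 lower, with a median of 0.81, against 13 higher, 1 lower and a median of 1.05 in cNEG doxorubicin cells. HLA-B had 634, 692 and 585 CPM in siMFN1+2 cells and 312, 56.2 and 122 CPM in proliferating cells (1.96, SE 0.47, adjusted p = 0.0017). TAP2, a subunit of the peptide transporter, was the member that fell (-1.13). HLA genes are near-identical copies, so the split between them is uncertain. Against cNEG doxorubicin cells none of the 15 was called without the block (median -0.36) or with the block over all groups (adjusted p = 1 for HLA-B and HLA-C and 0.65 for B2M), while 13 were lower with the block in the fit of 6 libraries, among them HLA-B (-0.57, adjusted p = 2.9e-06), HLA-C (-0.51) and B2M (-0.44), of which HLA-C and B2M were chosen after their values were seen.

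Of the 19 cytosolic sensing genes tested out of 20, 6 were higher and 8 lower than in proliferating cells. Over all genes tested 30.2% were higher and 30.1% lower, so calls in both directions are what any genes show here. The RNA sensor regulator DHX58 rose (3.06, SE 0.32, adjusted p = 3.5e-07) and so did MAVS, the mitochondrial adaptor of RNA sensing, at 189, 197 and 184 CPM in siMFN1+2 cells against 125, 97.4 and 118 CPM in proliferating cells (0.74, SE 0.15, adjusted p = 4.8e-04). CGAS, the DNA sensor, had 3.89, 5.26 and 3.22 CPM against 21.4, 30.6 and 24.1 CPM (-2.60, SE 0.24, adjusted p = 1.2e-07). SAMHD1, which degrades nucleotides, was the member lower than in cNEG doxorubicin cells (-0.49, adjusted p = 0.015), a call that ended without either of siMFN1+2 libraries 1 and 2 or cNEG libraries 1 and 3 (largest adjusted p = 0.156), and it was also below proliferating cells (-1.09).

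Mitochondrially encoded mRNAs were the other group that fell with the mitofusins. They made up 0.926%, 1.23% and 0.938% of counts in siMFN1+2 cells, 2.40%, 2.26% and 2.04% in cNEG doxorubicin cells and 0.737%, 0.807% and 0.632% in proliferating cells, so every siMFN1+2 library lay between the other groups. Against cNEG doxorubicin cells 8 of the 13 were lower and 0 higher, with a median of -0.98. With the block over all groups 10 were lower and 0 higher. In the blocked fit of 6 libraries 12 were lower and MT-ND6 (0.70) was higher, of which MT-ND6, MT-ND1 and MT-ND2 were not called over all groups (adjusted p = 0.85, 0.21 and 1). MT-ND2 was chosen after its value was seen. Without siMFN1+2 library 1 the count was 4. MT-CO1, a subunit of cytochrome oxidase, had 2290, 3175 and 2363 CPM in siMFN1+2 cells, 7566, 7158 and 6381 CPM in cNEG doxorubicin cells and 2032, 1783 and 1482 CPM in proliferating cells (-1.43 against cNEG, SE 0.16, adjusted p = 1.7e-04). MT-CYB, the cytochrome b of complex III, had 529, 679 and 543 CPM in siMFN1+2 cells, 1705, 1482 and 1521 CPM in cNEG doxorubicin cells and 360, 406 and 346 CPM in proliferating cells (-1.43, SE 0.13, adjusted p = 3.9e-05). Library 2 was the highest siMFN1+2 library in both. MT-CYB was chosen after its values were seen.

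Against proliferating cells, 8 of the 13 mitochondrial mRNAs were higher and 0 lower, with a median of 0.52, whereas 12 were higher with a median of 1.46 in cNEG doxorubicin cells. The highest were the complex I genes MT-ND1, at 662, 787 and 821 CPM in siMFN1+2 cells against 390, 413 and 295 CPM in proliferating cells (1.05, SE 0.15, adjusted p = 1.8e-05), and MT-ND5 (0.89). MT-ND6 (1.02) overlapped between the groups, and its call ended without siMFN1+2 library 2 (adjusted p = 0.314) and without proliferating library 1 or 3. The count of 8 became 5 without siMFN1+2 library 2 or proliferating library 3. MT-CO3 had 742, 957 and 744 CPM in siMFN1+2 cells and 1461, 859 and 689 CPM in proliferating cells and was not called (-0.30, adjusted p = 0.24). Nuclear copies of mitochondrial genes that were also called, MTCO1P12 and MTATP6P1, cannot be told apart from their sources in these counts.

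**Figure D4:**
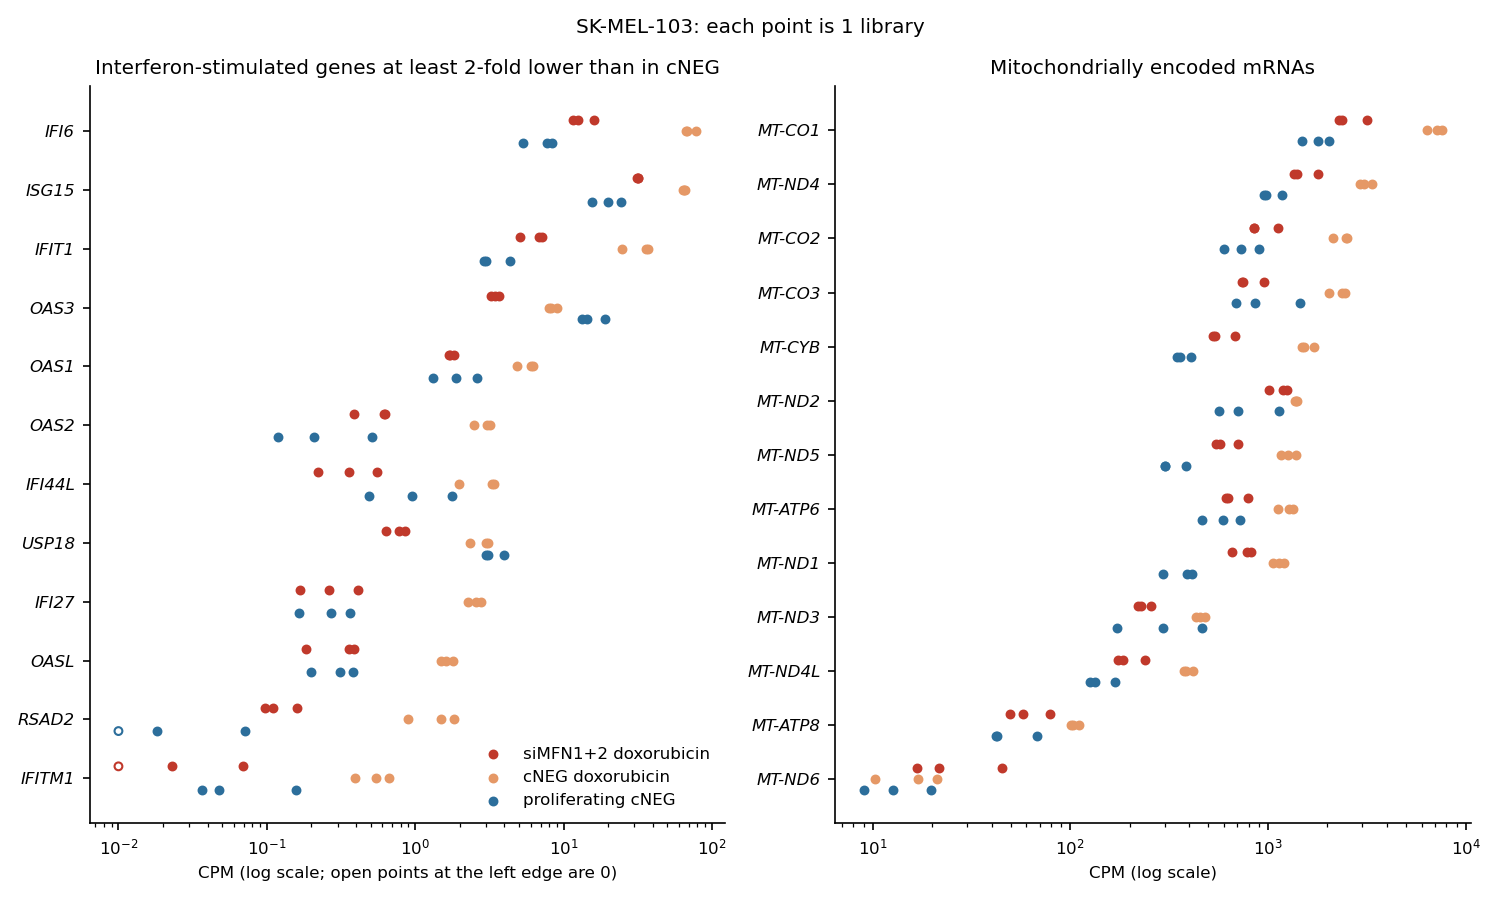
CPM on a log scale in each SK-MEL-103 library for the 12 interferon-stimulated genes called at least 2-fold lower in siMFN1+2 than in cNEG doxorubicin cells (left) and for all 13 mitochondrially encoded mRNAs (right), with 3 points per group and open points at 0.01 for libraries at 0. For MT-CO1 the siMFN1+2 points at 2290 to 3175 CPM lie between cNEG doxorubicin at 6381 to 7566 and proliferating cells at 1482 to 2032.

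The nuclear-encoded part of the respiratory chain did not follow the mitochondrial mRNAs. Of its 44 genes, 32 were lower and 1 higher than in proliferating cells in siMFN1+2 cells, with a median of -0.38, and 32 were lower and 0 higher in cNEG doxorubicin cells, with a median of -0.43. COX5A, a subunit of cytochrome oxidase, had 53.6, 47.1 and 63.7 CPM in siMFN1+2 cells and 112, 123 and 109 CPM in proliferating cells (-1.07, SE 0.12, adjusted p = 6.9e-07), and SDHB of complex II fell as well (-0.99). None of the 44 was called between the doxorubicin groups without the block or with it in the fit of 6 libraries, with medians of -0.03 in both fits. In the mitochondrial dynamics and mitophagy list 16 of 28 were lower than in proliferating cells and 4 higher. MFN2 and MFN1 were among the lowest together with PPARGC1B, a coactivator of mitochondrial biogenesis (-1.59), and the mitophagy receptor BNIP3L rose (0.91).

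The effect of the combined treatment was then compared between the lines in 1 fit of 36 libraries. Of 20892 genes tested, 2380 had a higher effect in SK-MEL-103 than in IMR-90 (11.4%) and 1705 a lower one (8.16%), together 4085 (19.6%), and in IMR-90 alone 9247 were called (44.3%). The split depended on scaling: with the size factors of DESeq2 1721 were higher and 2286 lower, and the median difference over all genes moved to -0.09, against 0.05 here. In the mitosis list 18 of 25 genes fell further in SK-MEL-103 and 0 less far, with a median difference of -1.85, and 18 became 9 without siMFN1+2 SK-MEL-103 library 1 and 8 without library 2. MKI67 had 28.8, 27.8 and 69.3 CPM in siMFN1+2 IMR-90 and 518, 488 and 489 CPM in proliferating IMR-90, a fold change of -3.58. In the same fit the SK-MEL-103 fold change was -7.43, and the difference between the lines was -3.84 (adjusted p = 0.029). That call ended when any of 6 single libraries was left out (largest adjusted p = 0.0936, without siMFN1+2 SK-MEL-103 library 2), the others being siMFN1+2 SK-MEL-103 library 1, siMFN1+2 IMR-90 library 3 and each proliferating IMR-90 library. CDKN1A rose further in IMR-90, by 2.86 on the log2 scale against 1.95 for SK-MEL-103 in the same fit (difference -0.91, adjusted p = 2.5e-04). Of the 13 mitochondrial mRNAs 10 had a higher effect in SK-MEL-103 and 0 a lower one, with a median difference of 1.25. The 10 became 6 without siMFN1+2 library 2 or proliferating library 3 of SK-MEL-103, or without siMFN1+2 library 3 or proliferating library 2 of IMR-90, and 3 when only the 12 libraries compared were fitted. MT-CO1, for example, changed by -1.04 in IMR-90 (adjusted p = 0.0033), where it lay below the proliferating level, and by 0.65 in SK-MEL-103 in the same fit (adjusted p = 0.057), and the difference was 1.69 (adjusted p = 0.0030). Of the 38 interferon-stimulated genes 15 had a higher effect in SK-MEL-103 and 2 a lower one, with a median difference of 1.11. Over the members tested in each fit, leaving out a library in turn gave 10 to 14 higher and 2 to 4 lower. With the replicate block in only the libraries compared 10 were higher. The mitofusins also fell further in IMR-90, with log2 changes against proliferating cells of -2.47 for MFN1 and -3.30 for MFN2, against -1.43 and -2.49 for SK-MEL-103 in the same fit (differences 1.04 and 0.80, adjusted p = 0.024 and 5.9e-04). These changes hold both the drug and the siRNAs: in SK-MEL-103 MFN2 changed by -0.51 with cNEG and doxorubicin (edgeR adjusted p = 3.9e-04). The depth of silencing itself was not compared between the lines. The call of MFN1 ended without proliferating IMR-90 library 1 or without siMFN1+2 library 2 or proliferating library 2 or 3 of SK-MEL-103. The part of these mitofusin differences in the other differences was not tested.

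**Figure D5:**
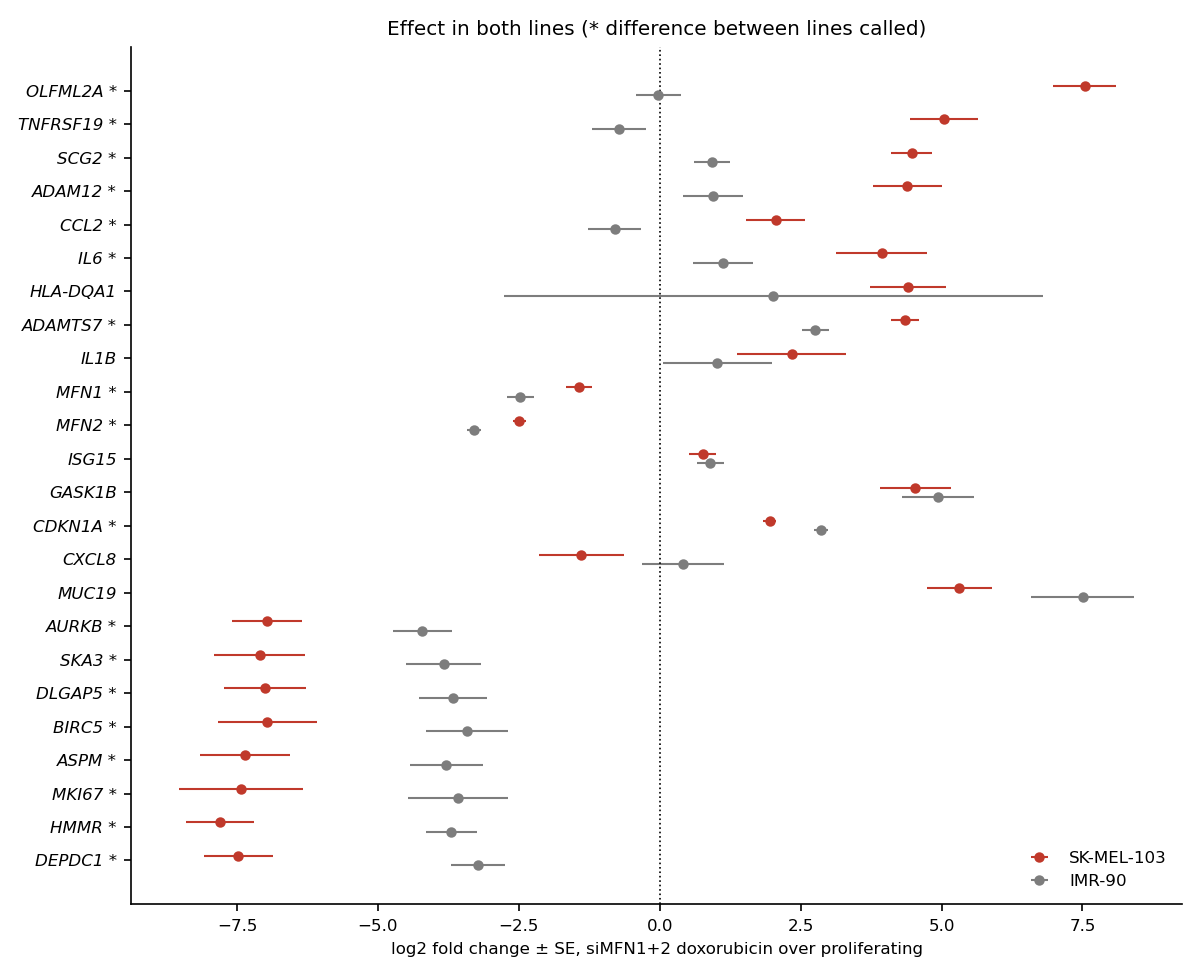
Log2 fold change with its SE of siMFN1+2 doxorubicin over proliferating cells, in SK-MEL-103 and in IMR-90, both from the fit of 36 libraries, for 24 genes ordered by the difference between the lines, with an asterisk where that difference was called. OLFML2A had a fold change of 7.54 in SK-MEL-103 and of -0.03 in IMR-90, and the mitotic genes at the bottom fell further in SK-MEL-103. These were among the 8 highest and 8 lowest genes picked by their fold change in SK-MEL-103, which favours a larger effect there.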

How the data were processed

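Messenger RNA was read with a stranded poly(A) library kit and 10 cycles of PCR, per the labels' protocols. The authors deposited raw counts per Ensembl gene, whole numbers with no normalization, for 48898 genes in 48 libraries. Per the submitters' processing notes reads were trimmed with Trim Galore 0.6.7, aligned with STAR 2.7.10a to GRCh38 and counted with featureCounts. Its version, the annotation, the strand setting and the treatment of reads with several matches are not given in the sources used here, so antisense genes and near-identical copies are uncertain. Without molecular identifiers, PCR duplicates could not be told from separate molecules.

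Symbols were taken by Ensembl gene from a separate list of gene names, and from GENCODE 29 where that list gave none. Gene positions are from GENCODE 29, which held 46876 of the genes. Genes were tested with edgeR 4.0.16 in R 4.3.3 (limma 3.58.1): filterByExpr, TMM scaling and the quasi-likelihood F test on all 18 SK-MEL-103 libraries, or on 36 libraries of both lines for the difference between them, without a replicate block. P-values were Benjamini-Hochberg adjusted over all genes tested and a gene is called below 0.05. The SE is the fold change divided by the square root of F. CPM use TMM-scaled library sizes. The same steps were tested on simulated data. No library was a copy of another (smallest chi-square per degree of freedom 11.7 over 9 pairs of the same group).

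Named genes are MFN1, MFN2, CDKN1A, MKI67, IL6, CXCL8, IL1B, CCL2, ISG15 and CXCL10, 8 genes at each end of the fold changes (protein-coding, called, a mean of at least 2 on the log2 CPM scale over the 6 libraries, no overlap of the groups), and at most 3 called members at each end of each of 24 lists (at most 2 against cNEG). The members and lists were chosen with earlier results of these data known. Replicate numbers were taken to pair 2 groups where all 3 correlations of same-numbered libraries exceeded 0.1, since the labels state no pairing. This held for siMFN1+2 against cNEG doxorubicin (0.259, 0.436 and 0.371) and not for siMFN1+2 against proliferating cells. Alternatives were DESeq2 1.42.0, its size factors, nuclear genes alone, other filters, other libraries in the fit, a replicate block and leaving out each library.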

Additional observations from a re-analysis of the deposited data

Results flagged for a closer look

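The effect of siMFN1+2 with doxorubicin against proliferating cells differed between SK-MEL-103 and IMR-90, by edgeR's test of the difference itself with p adjusted over all genes, in 36 of the 52 named or directly changed genes tested. Over all genes 19.6% differed, and most of the 52 were picked for changes in SK-MEL-103, so the 2 shares cannot be compared. Differences are log2 effects in SK-MEL-103 minus those in IMR-90, both from the fit of 36 libraries.

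Of the 8 genes lowest in SK-MEL-103 all fell further there: DEPDC1 (-4.25), HMMR (-4.10), MKI67 (-3.84), ASPM (-3.58), BIRC5 (-3.54), DLGAP5 (-3.34), SKA3 (-3.26) and AURKB (-2.76). CDKN1A (-0.91) and the histone gene H3C10 (-2.44) also had a lower effect there.

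Of the 8 genes highest in SK-MEL-103, 5 had a higher effect there, OLFML2A (7.56), TNFRSF19 (5.76), SCG2 (3.55), ADAM12 (3.45) and ADAMTS7 (1.59). MUC19 (-2.18, adjusted p = 0.27), GASK1B (-0.41, adjusted p = 0.79) and HLA-DQA1 (2.39, adjusted p = 0.98) did not pass the test. Of the 4 cytokine genes named by the fixed part of the naming rule, IL6 (2.82) and CCL2 (2.85) had a higher effect, while CXCL8 (-1.80, adjusted p = 0.24) and IL1B (1.32, adjusted p = 0.54) did not pass.

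Mitochondrial mRNAs with a higher effect in SK-MEL-103 were MT-CO1 (1.69), MT-CYB (1.55), MT-CO2 (1.47), MT-CO3 (1.32), MT-ND5 (1.25), MT-ND4L (1.25), MT-ND4 (1.25) and MT-ATP6 (1.14), as were their nuclear copies MTCO1P12 (1.64) and MTATP6P1 (1.05). Interferon-stimulated genes with a higher effect were IFIT1 (1.70), PARP9 (1.45), OAS3 (1.42) and IFI6 (1.19). The silenced genes themselves, MFN1 (1.04) and MFN2 (0.80), fell further in IMR-90. The remaining genes were SLC44A1 (1.26), FAM89B (1.02) and WBP1L (0.81).

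Many of these calls depended on the processing. IFI6 lost its call in 13 of 20 alternatives, MTATP6P1 in 11 of 20, IL6 in 10 of 20, MT-ND5 in 8 of 19 and MT-ATP6 in 7 of 19. MT-CO3 lost it in 6 of 19, and OAS3, MKI67 and MFN1 in 6 of 20 each. IFIT1 lost it in 4 of 20, 4 genes (BIRC5, SKA3, FAM89B and MT-CO2) in 2, 7 genes in 1 and 15 genes in 0. The cause of these differences was not tested.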

How the results depend on the processing

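The count of genes called between siMFN1+2 doxorubicin and proliferating cells (10818) stayed within 1.5 times under every alternative run, between 8174 and 11641, and so did that of cNEG doxorubicin against proliferating cells (10634, between 8560 and 11484). The count between the doxorubicin groups (31) did not: it was 69 with DESeq2, 142 with no filter on low counts, 51 with only the 6 libraries compared, 54 with the replicate block over all groups and 1384 with the replicate block in those 6 libraries. Leaving out a library in turn gave 18 to 27, with 18 without siMFN1+2 library 1. The difference between the lines (4085) became 2155 with the replicate block in the libraries compared, and 3160 to 4641 with a library left out. Its split of 58.3% higher calls became 42.9% with DESeq2 size factors, 43.1% with DESeq2, 38.4% with only the 12 libraries compared and 39% when these had the block.

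Over the 131 named genes tested against proliferating cells, 14 lost their call under at least 1 alternative and 0 turned round. Between the doxorubicin groups 14 of the 31 called genes lost their call, and between the lines 21 of the 36 called among the 52 tested. For siMFN1+2 against proliferating cells the replicate numbers share only a number (correlations 0.114, -0.0813 and -0.0394). Low counts limit IFITM1, RSAD2, IL6, FGF2 and MMP3, and the SASP list, of which 12 members were not tested.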
